A study of Rattus norvegicus with 30 samples.

Results

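The effect of a vitamin A-deficient diet on lung endothelial cells was examined after Glenn surgery by setting 5 libraries from rats on the deficient diet against 5 from rats on the control diet. These 10 libraries were chosen by their labelled treatment from 30 that cover both operations and all 3 diets (control, deficient and excess). All 10 came from wild-type rats that had undergone the Glenn operation, which connects the superior caval vein with the pulmonary artery, and the lung fed in this way receives no venous blood from the liver. Cells positive for CD31, a surface protein of endothelial cells encoded by Pecam1, were taken from the lung with magnetic microbeads 3 weeks after the operation, and the modified diets were eaten after it. The labels give no strain, age, sex or vitamin A content of the diets, and do not state whether each library came from its own animal, so the p-values measure the spread between these libraries. The design asks whether dietary vitamin A alters the response of the lung endothelium to this circulation.

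Vitamin A (retinol) is stored as esters made by Lrat and is oxidised to retinoic acid by retinol dehydrogenases and then by Aldh1a1, Aldh1a2 and Aldh1a3. Retinoic acid binds receptors (Rara, Rarb, Rarg) that pair with Rxr proteins on response elements in target genes, among them Rarb itself and Cyp26a1 and Cyp26b1, which degrade retinoic acid. In the lung, retinoic acid is known for its part in alveolar and vascular growth and in elastin synthesis by fibroblasts.

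Promoter sequences of 3 kinds are shown because they belong to the genes the results turn on. Sequences are from RefSeq (build GRCr8) and were searched on both strands from 250 bases before to 50 bases after each gene start. The first is the retinoic acid element, spelled here as GTTCANNNNNNGTTCA, which stood in 140 of 33469 promoters (0.418%) and in 2 of the 9 retinoic acid-induced genes that had a promoter in the table. Those 2 were Cyp26a1 (chr1:244883710-244883765, plus strand) and Rarb (chr15:11336417-11336432, plus strand). Capitals mark the match, which in Cyp26a1 reads on the opposite strand.
Cyp26a1: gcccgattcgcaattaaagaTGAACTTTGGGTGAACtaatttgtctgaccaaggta
Rarb: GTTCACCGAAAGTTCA

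The second is the Y box of class II major histocompatibility genes, searched as CTGATTGG. It stood in 3.50% of all promoters and in 6 of 9 from the list of class II RT1 genes, Cd74 and Ciita. The 4 that lead the class II result below carried it in capitals at RT1-Da (chr20:4515318-4515414, plus strand), RT1-Db1 (chr20:4560193-4560290, minus strand), RT1-Bb (chr20:4604130-4604227, minus strand) and RT1-Ba (chr20:4576966-4577056, plus strand).
RT1-Da: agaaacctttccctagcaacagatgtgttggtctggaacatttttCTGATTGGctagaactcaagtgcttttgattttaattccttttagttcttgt
RT1-Db1: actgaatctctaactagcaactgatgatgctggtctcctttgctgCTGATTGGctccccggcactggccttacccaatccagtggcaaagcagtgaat
RT1-Bb: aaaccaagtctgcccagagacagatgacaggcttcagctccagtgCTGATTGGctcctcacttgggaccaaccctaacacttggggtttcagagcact
RT1-Ba: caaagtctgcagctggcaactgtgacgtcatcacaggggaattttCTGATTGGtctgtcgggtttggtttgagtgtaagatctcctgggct

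The third is the interferon-stimulated response element, searched as GAAANNGAAA, which stood in 3.92% of all promoters and in 23 of 34 for the interferon-stimulated genes. Ifi44 (chr2:243303841-243303886, minus strand), Igtp (chr10:42874924-42874973, plus strand), Parp14 (chr11:78408038-78408087, plus strand) and Gbp2 (chr2:234005676-234005725, plus strand) are examples, with the match in capitals and on the opposite strand in Ifi44 and Gbp2. A match is a run of letters and not a measured binding site.
Ifi44: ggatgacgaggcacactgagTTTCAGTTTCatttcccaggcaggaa
Igtp: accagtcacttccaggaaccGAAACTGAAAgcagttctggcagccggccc
Parp14: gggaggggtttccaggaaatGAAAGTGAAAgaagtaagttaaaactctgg
Gbp2: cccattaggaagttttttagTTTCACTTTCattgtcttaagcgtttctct

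Total estimated counts ranged from 22 to 42.5 M on the deficient diet and from 38.2 to 77.6 M on the control diet, a difference within the spread (two-sided exact permutation p 0.206). Deficient replicates 4 and 5 are the libraries numbered 601 and 602, whereas the other 8 are numbered 378 to 387, and this number series was a term of the fit. The major histocompatibility gene RT1-CE16 was at 21.9 to 31.5 CPM (counts normalised to library size, with TMM scaling) in replicates 1 to 3 of both groups and at 407 to 949 CPM in replicates 4 and 5 of both groups. By the Y-linked gene Ddx3y, replicates 1 and 4 of each group were male and the other 6 libraries female, with 1.65 CPM in deficient replicate 5 against 0 to 0.0773 CPM in the other 5 of them. The endothelial genes Pecam1 (863 to 1248 CPM) and Cdh5 (1557 to 2318 CPM) were present in all 10 libraries, as were transcripts of type 2 alveolar cells such as Sftpc (15062 to 33951 CPM), while the leukocyte gene Ptprc stood at 1.29 to 8.69 CPM.

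By edgeR, 1 gene passed the adjusted threshold of 0.05 (0.00618% of 16171 genes tested), and it was higher on the deficient diet. Gpr157 (ENSRNOG00000017528), an orphan G protein-coupled receptor, stood at 3.95, 3.53, 3.54, 1.58 and 1.65 CPM in deficient replicates 1 to 5 and at 0.97, 0.992, 0.79, 1.28 and 1.15 CPM in control replicates 1 to 5. Every deficient library lay above every control library, but deficient replicates 4 and 5 lay close to the control range while replicates 1 to 3 were well above it. The mean of Gpr157 rose to 2.85 ± 1.14 CPM from 1.04 ± 0.185 CPM (SD, n = 5 in each group), and its log2 change was 1.63 (SE 0.23, edgeR quasi-likelihood test, Benjamini-Hochberg adjusted p 0.00102). Among RT1-CE16-low libraries of the series the change was 1.99 (edgeR adjusted p 0.0102), whereas in the RT1-CE16-high ones it came to 0.41 (edgeR adjusted p 0.925). With only the 10 libraries fitted and no series term it was 1.45 and not past the threshold (edgeR adjusted p 0.629). Among 74 tested genes named Gpr or Adgr, 2 were higher and 6 lower at an unadjusted p under 0.05. That share of 10.8% lies near the 9.88% of all genes tested.

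No other gene passed by edgeR's quasi-likelihood test, where the next smallest adjusted p was 0.103, while DESeq2 called 63 genes and limma voom 29 on the same libraries, Gpr157 among both. At an unadjusted p under 0.05 stood 1598 genes (9.88%), of which 873 (5.4%) were higher and 725 (4.48%) lower on the deficient diet. These percentages are the background for every count of class members below. The CPM of the groups did not overlap for 73 genes that were higher (0.451%) and 83 that were lower (0.513%).

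Genes with the smallest p among those higher on the deficient diet were led, after Gpr157, by Rftn1, which encodes the lipid raft protein raftlin. It stood at 52.4, 56.6, 60.3, 40.6 and 47.5 CPM in deficient replicates 1 to 5 and at 47.6, 39.5, 33.2, 41.1 and 39.3 CPM in control replicates 1 to 5 (log2 difference 0.44, SE 0.09, edgeR adjusted p 0.103). Its groups overlapped, deficient replicates 4 and 5 lying under control replicate 1. Wnt5b, a secreted Wnt ligand, stood at 7.4, 5.55, 5.42, 4.79 and 6.56 CPM against 4.38, 3.63, 2.49, 3.67 and 3.44 CPM, with no overlap (0.78, SE 0.17, edgeR adjusted p 0.103). Mfap5, a microfibril protein, stood at 13.3, 17.5, 9.36, 4.12 and 2.91 CPM against 2.96, 2.22, 3.86, 4.73 and 5.26 CPM (1.55, SE 0.34, edgeR adjusted p 0.103). Only replicates 1 to 3 of the deficient group carried that difference, and replicates 4 and 5 lay inside the control range. Snai2, a transcription factor of mesenchymal cells, had a log2 difference of 1.14 (SE 0.25), and Msrb3 (a methionine sulfoxide reductase), Osbpl1a (an oxysterol-binding protein family member), Specc1l, Arhgef40 (a guanine nucleotide exchange factor) and Efcc1 had differences of 0.36 to 0.53, all with overlapping groups.

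Among genes that were lower on the deficient diet, Rassf4 (log2 difference -0.92, SE 0.20) and the epithelial and mesothelial keratin gene Krt8 had the smallest p-values at a mean of 1 CPM or more. Krt8 stood at 152, 119, 149, 205 and 178 CPM in deficient replicates 1 to 5 and at 165, 202, 255, 290 and 279 CPM in control replicates 1 to 5 (-0.72, SE 0.16, edgeR adjusted p 0.103). Deficient replicates 4 and 5 were the high ones of their group and overlapped with control replicates 1 and 2. Its partner Krt18 had a difference of -0.66 (SE 0.16, edgeR adjusted p 0.158). Sox9, a transcription factor of progenitor and cartilage cells, stood at 6.69, 3.20, 3.40, 7.38 and 7.47 CPM against 8.20, 8.08, 13.7, 19.3 and 16.9 CPM, with no overlap (-1.41, SE 0.32, edgeR adjusted p 0.114). Fyb1, an adaptor protein of T cells and platelets, also showed no overlap, at 3.36, 2.28, 3.94, 4.10 and 4.65 CPM against 5.48, 6.08, 5.93, 12.1 and 6.61 CPM (-1.10, SE 0.25, edgeR adjusted p 0.104). Slc7a9, an amino acid transporter subunit (-1.64, SE 0.37), Rhpn2 (-0.58, SE 0.13) and Cndp2, a dipeptidase (-0.56, SE 0.13), overlapped between groups.

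**Figure D1:**
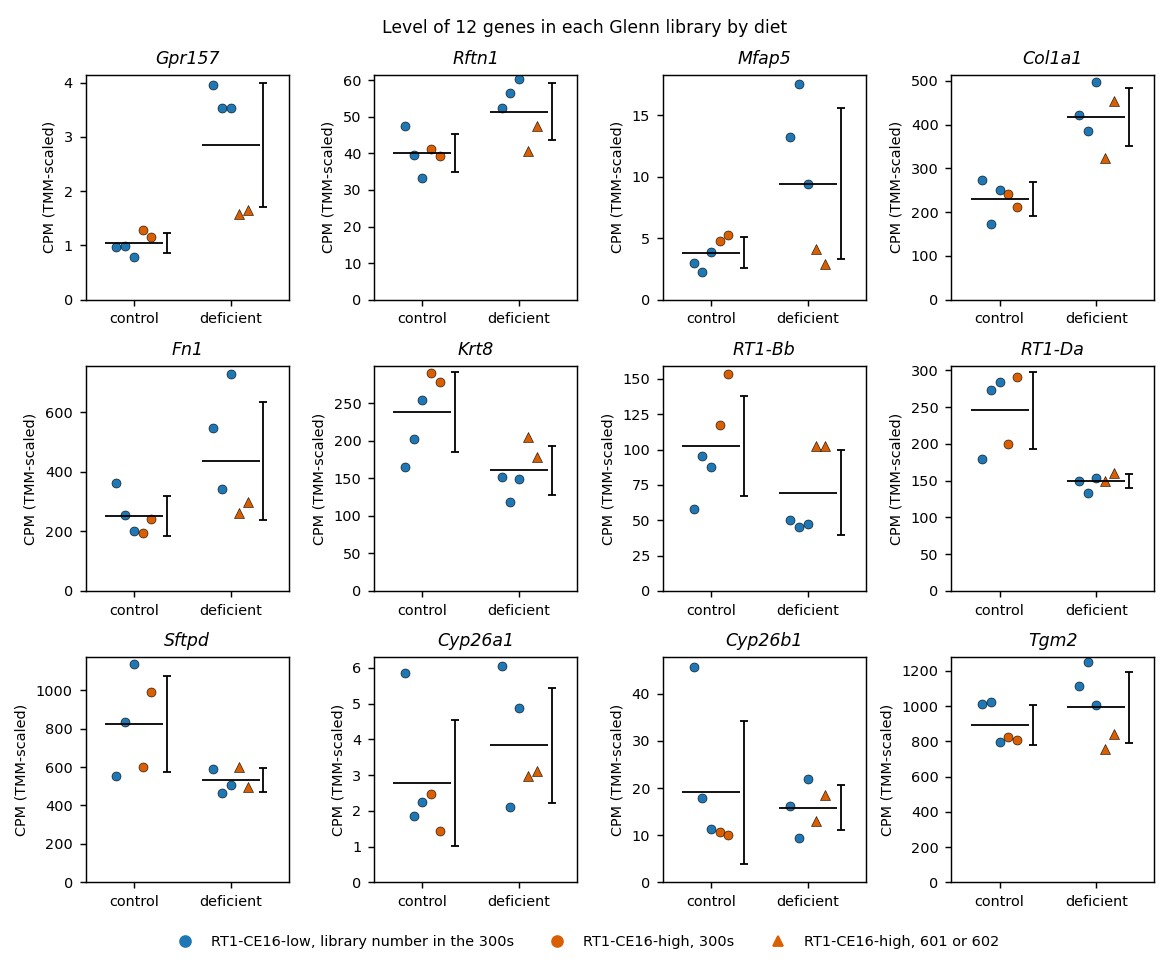
Level of 12 genes in each Glenn library, as CPM after TMM scaling on linear axes that start at 0, with control-diet libraries on the left and deficient-diet libraries on the right of each panel. Lines are means, bars are SD (n = 5), and colours and shapes mark RT1-CE16-low libraries, RT1-CE16-high libraries and those numbered 601 and 602; the deficient RT1-Da values of 134 to 160 CPM all sit below the control values of 179 to 291 CPM.

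How many genes passed depended on the test and fit and on 1 control library. Without Glenn control replicate 1, 60 genes passed the adjusted threshold by edgeR (0.367% of 16331 tested), 30 higher and 30 lower on the deficient diet. All 60 had the same sign with every library included, 59 of them at an unadjusted p under 0.05, and their log2 differences with all libraries were at a median 0.844 of those without it. Beside the genes above, the 60 included Nid1 and Col4a2 of the basement membrane, Itga5 (a fibronectin receptor subunit), the elastic fibre genes Ltbp1 and Fbln5, the arterial gap junction gene Gja5, the class II genes RT1-Bb, RT1-Db1, RT1-Da and Cd74, and Krt18. These names were chosen after their values were seen. Control replicate 1 had the fewest detected genes of the 10 libraries (16714) and the highest mitosis score of the controls.

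Shifts shared by whole classes of genes were described for 56 classes chosen with earlier results of these data known, by the share of members at an unadjusted p under 0.05 and by the median log2 difference, beside the same over all genes (median 0.01). The classes with the largest shares were mesothelial markers (9 of 9, all lower), interferon-stimulated genes (32 of 44, all higher), type 2 alveolar markers (8 of 11, all lower), erythroid markers (4 of 7), fibroblast markers (7 of 17), elastic fibre and matrix genes (15 of 38) and collagens (12 of 31), all of the last 3 higher. RT1 genes followed with 10 of 27 lower. In these bulk libraries, fewer cells of a type and less RNA per cell cannot be told apart.

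**Figure D2:**
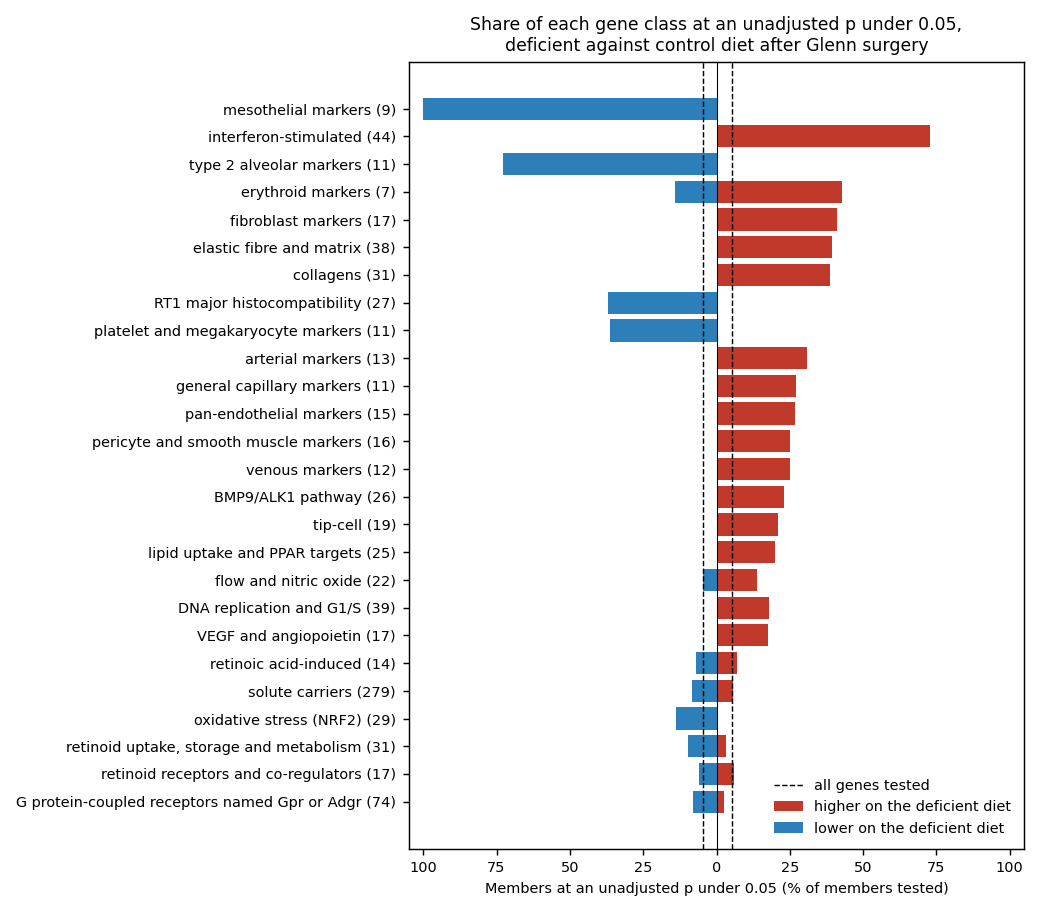
Share of each gene class at an unadjusted p under 0.05, deficient against control diet after Glenn surgery, in percent of members tested, with higher members to the right and lower members to the left. Numbers in brackets are members tested and dashed lines mark the shares over all 16171 genes (5.4% higher, 4.48% lower); mesothelial markers reach 100% lower and interferon-stimulated genes 72.7% higher.

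The class II list held RT1 genes, Cd74 and Ciita, of which 0 passed the adjusted threshold and 10 of 11 had a negative difference. RT1-Da, an alpha chain, stood at 150, 134, 153, 150 and 160 CPM in deficient replicates 1 to 5 and at 179, 274, 284, 200 and 291 CPM in control replicates 1 to 5. Every deficient library lay below every control library, at nearly one level, while the controls were spread (log2 difference -0.65, SE 0.15, edgeR adjusted p 0.113). Cd74, the invariant chain that escorts class II molecules, did not overlap either, at 870, 715, 811, 841 and 806 CPM against 943, 1426, 1595, 1008 and 1482 CPM (-0.58, SE 0.16, edgeR adjusted p 0.236). RT1-DMa, a subunit of the peptide loader, was at 10.8 to 15 CPM against 16.8 to 25.7 CPM (-0.48, SE 0.19).

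The beta chain RT1-Bb stood at 50.4, 45, 47.6, 103 and 102 CPM against 58.2, 95.1, 87.7, 118 and 153 CPM (-0.92, SE 0.20, edgeR adjusted p 0.103). Replicates 4 and 5, the RT1-CE16-high libraries, were the high ones within each group. RT1-Db1 (-0.71), RT1-Ba (-0.69) and RT1-DMb (-0.67) differed in the same direction, and Ciita, the transactivator of class II genes, had a difference of -0.32 (SE 0.23, edgeR adjusted p 0.719). In all, 9 of the 11 listed genes, Ciita included in the 11, were lower at an unadjusted p under 0.05, with a median of -0.67. That list was put together after its values were seen. The median was -0.79 without libraries 601, 602 and the rest of their series, -0.73 within RT1-CE16-low and -0.60 within RT1-CE16-high libraries. After sham surgery it was -0.11, with 2 genes lower. Reads of near-identical RT1 genes are shared out by estimate, so values of single RT1 genes are uncertain.

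Type 2 alveolar markers, which include the surfactant protein genes, were all on the lower side. Sftpd, surfactant protein D, stood at 591, 464, 509, 602 and 496 CPM in deficient replicates 1 to 5 and at 552, 836, 1137, 598 and 993 CPM in control replicates 1 to 5 (-0.59, SE 0.18, edgeR adjusted p 0.271). Control replicates 1 and 4 lay within the deficient range and the other 3 controls above it. Sftpa1 (-0.55, SE 0.19), Sftpc (-0.45, SE 0.19), Napsa (-0.43, SE 0.17) and Sftpb (-0.43, SE 0.18) also had control replicates 1 and 4 as the lowest of the 5 controls.

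The score of the 11 tested type 2 markers (mean log2(CPM + 1)) was 10.04, 9.57, 9.75, 9.93 and 9.88 in the deficient libraries and 9.79, 10.33, 10.69, 9.88 and 10.54 in the controls. Class II genes are also known to be expressed by type 2 alveolar cells, and the class II score was lowest among controls in replicate 1 (4.36) and next lowest in replicate 4 (4.77). With a leukocyte marker score and the type 2 score together as covariates, the class II median was -0.36 with 6 of 11 lower. That fit does not separate the 2 scores. The part of type 2 or leukocyte content in the class II values was not tested. The type 2 median was -0.43 (all genes 0.01), -0.51 without the later-numbered series and -0.32 within RT1-CE16-high libraries. In place of 8, the count of lower members was 2 without control replicate 3 or deficient replicate 2, 3 without control replicate 5 and 4 without deficient replicate 3. After sham surgery it was 0.06, with 0 of 11 at an unadjusted p under 0.05. Macrophage and monocyte markers had 0 of 15 lower and a score of 2.43 to 2.79 on the deficient diet against 2.39 to 2.70 on the control diet, and lymphocyte markers had 0 of 15 at that p.

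**Figure D3:**
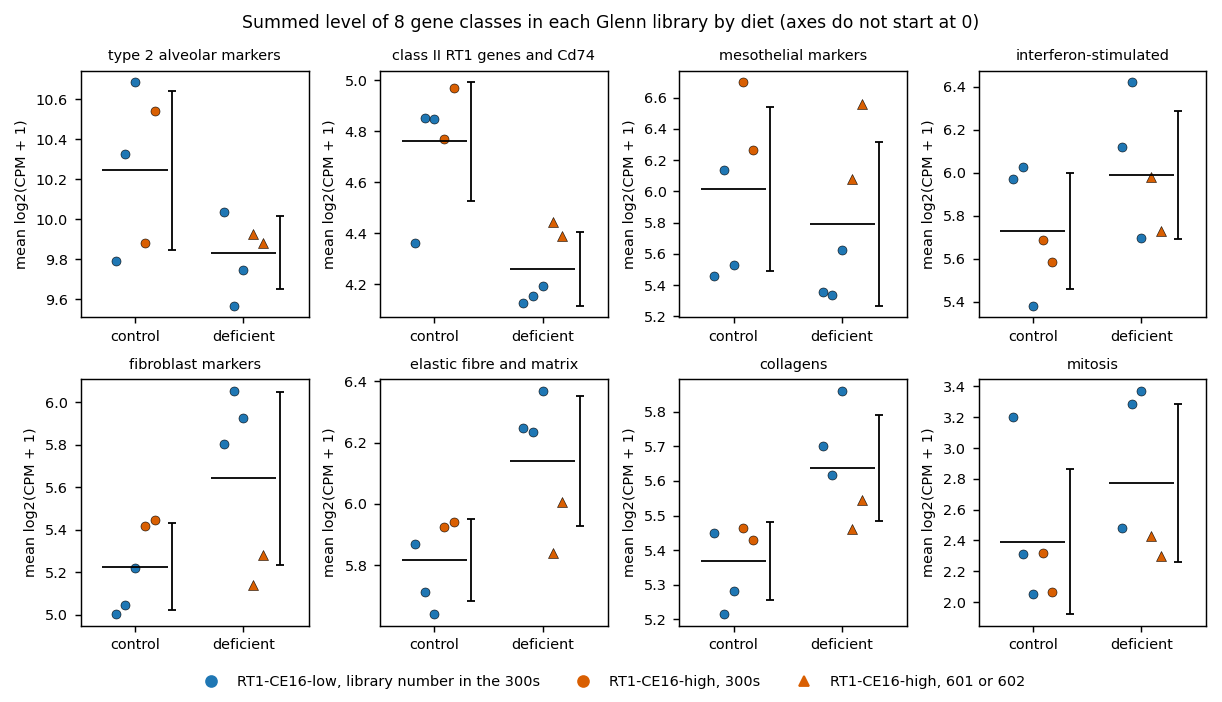
Summed level of 8 gene classes in each Glenn library, as the mean of log2(CPM + 1) over tested members, on axes that do not start at 0, with control libraries left and deficient libraries right in each panel. Lines are means, bars are SD (n = 5), and colours and shapes mark the RT1-CE16 level and the libraries numbered 601 and 602; the type 2 alveolar score spans 9.57 to 10.04 on the deficient and 9.79 to 10.69 on the control diet.

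Extracellular matrix and fibroblast genes were on the higher side. Col1a1, a chain of type I collagen, stood at 422, 385, 498, 324 and 455 CPM in deficient replicates 1 to 5 and at 273, 173, 251, 241 and 211 CPM in control replicates 1 to 5. No libraries overlapped, and replicates 4 and 5 shared the difference (log2 difference 0.86, SE 0.22, edgeR adjusted p 0.184; 0.78 within RT1-CE16-high libraries). Eln, elastin, stood at 2094, 1360, 2530, 1552 and 1978 CPM against 1750, 1006, 786, 1437 and 1139 CPM (0.57, SE 0.18, edgeR adjusted p 0.28), with overlap at control replicates 1 and 4. Fn1, fibronectin, was at 547, 341, 728, 260 and 298 CPM against 362, 254, 201, 194 and 243 CPM (0.95, SE 0.27, edgeR adjusted p 0.265). Deficient replicates 1 and 3 were high, and replicates 2, 4 and 5 lay in the control range.

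Of 38 tested elastic fibre and matrix genes, 15 were higher and 0 lower at an unadjusted p under 0.05, with a median of 0.39. Those named by rule were Mfap5, Ltbp1 (a binding protein of latent TGF-beta, 0.50, SE 0.13) and Fn1, and Fbln5, an elastic fibre assembly protein, had a difference of 0.68 (SE 0.20). Among 31 collagens 12 were higher and 0 lower (median 0.25), with Col8a1 at 0.80 (SE 0.27) and Col6a3 at 0.74 (SE 0.25) next to Col1a1. The Col6a3 value rested partly on deficient replicate 3 (131 CPM against 38 to 63.1 CPM in the other 4).

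Fibroblast markers moved with these genes, with 7 of 17 higher, 0 lower and a median of 0.67. Some genes are on more than one list, such as Col1a1, Mfap5, Dcn and Lum. Beside Col1a1 and Mfap5, the fibroblast members with small p were Plin2, a lipid droplet protein (0.37, SE 0.10), Dpt (dermatopontin, 1.06), the transcription factor Tcf21 (0.95), the growth factor Fgf10 (1.43) and Lum (lumican, 0.72). The defining markers Pdgfra and Dcn were present in every library, at 7.28 to 31.0 and 13.4 to 51.2 CPM. The fibroblast score was 5.81, 6.06, 5.93, 5.14 and 5.28 in deficient replicates 1 to 5 and 5, 5.04, 5.22, 5.42 and 5.45 in control replicates 1 to 5. Deficient replicates 1 to 3 were thus above all controls, and replicates 4 and 5 were not. Pericyte and smooth muscle markers had 4 of 16 higher and 0 lower (median 0.40).

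The matrix medians were not alike in both sets of libraries. Within RT1-CE16-low libraries the medians were 0.90 for fibroblast markers, 0.47 for elastic fibre and matrix genes and 0.34 for collagens, and within RT1-CE16-high libraries they were -0.25, 0.01 and 0.07. That difference was not tested, and since both RT1-CE16-high deficient libraries are 601 and 602, RT1-CE16 level and library series cannot be told apart in the deficient group. After sham surgery they were -0.01, -0.01 and 0.04. The counts moved with single libraries: 7 fibroblast members became 4 without control replicate 1 or deficient replicate 1, 15 matrix genes became 10 without deficient replicate 3, and 12 collagens became 7 without the same library. The part of fibroblast content in the matrix values was not tested.

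Interferon-stimulated genes, the antiviral program switched on by interferons, were higher as a class: all 44 tested had a positive log2 difference and 32 were at an unadjusted p under 0.05. Samd9l, an antiviral restriction factor, stood at 122, 144, 116, 106 and 102 CPM in deficient replicates 1 to 5 and at 113, 94.0, 75.4, 94.7 and 86.4 CPM in control replicates 1 to 5 (0.51, SE 0.15, edgeR adjusted p 0.265). Only control replicate 1 lay inside the deficient range. Eif2ak2, the RNA-activated kinase PKR, was at 101.5, 97.8, 82.8, 85 and 71.1 CPM against 79.9, 72.3, 46, 64.5 and 69.1 CPM (0.54, SE 0.16, edgeR adjusted p 0.271), and Herc6, an E3 ligase, had a difference of 0.64 (SE 0.19). The regulator Irf7 (0.75, SE 0.30), the ubiquitin-like protein gene Isg15 (0.92, SE 0.35), the chemokine gene Cxcl10 (0.97, SE 0.34), Ifi44 (0.64, SE 0.20) and the GTPase gene Igtp (0.73, SE 0.24) overlapped between groups.

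The interferon count depended on the terms of the fit. The class median was 0.53 with the library series term and 0.27 without it, where 4 of 44 were higher at an unadjusted p under 0.05. Fitted on only the 10 libraries without the term, 8 of 43 were higher. A replicate block in that fit of the 10 libraries, chosen after seeing the data and also without the series term, gave 25 of 43 higher. The median there was 0.24, and 7.53% of all genes were at that p. The median was 0.39 with 10 of 44 higher when the later-numbered series was left out, 0.28 with 2 higher within RT1-CE16-low libraries and 0.24 with 4 higher within RT1-CE16-high libraries. The score was 6.12, 6.42, 5.70, 5.98 and 5.73 in the deficient libraries and 5.97, 6.03, 5.38, 5.69 and 5.59 in the controls, so the groups overlapped. Each deficient library stood above the control library of the same number, and the labels do not say whether that number marks a pairing. Without deficient replicate 2, the library with the highest score, 21 of 44 were higher. After sham surgery, in the same fit and with the same series term, the median was 0.72 and 40 of 44 were higher. Without the term the sham values were 0.39 and 9 of 44, and without the later-numbered libraries 0.95 and 42 of 44. Within RT1-CE16-low libraries the sham values were 0.90 and 27 of 44, and within RT1-CE16-high libraries -0.04 and 0 of 44.

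Mesothelial markers, genes of the lung's outer lining, were lower in 9 of 9 (median -0.70), and Krt8 and Krt18 are also expressed there. Lrrn4 stood at 85.5, 78.9, 103, 134 and 164 CPM in deficient replicates 1 to 5 and at 106, 149, 102, 209 and 154 CPM in control replicates 1 to 5 (-0.71, SE 0.21, edgeR adjusted p 0.271). Upk3b (-0.90, SE 0.32), Upk1b (-0.60, SE 0.20) and Msln (-0.54, SE 0.19) likewise overlapped between groups. The mesothelial score was 5.36, 5.33, 5.63, 6.08 and 6.56 in deficient and 5.45, 6.14, 5.53, 6.70 and 6.26 in control libraries, highest in replicates 4 and 5 of both groups. Without the series term the median was -0.25 and 0 of 9 were lower at an unadjusted p under 0.05. When the later-numbered series was left out, 7 of 9 were lower and the median was -0.69. It was -0.26 within RT1-CE16-low and -0.14 within RT1-CE16-high libraries. With every library but control replicate 4 the count was 4 of 9, and 6 of 9 without control replicate 5 or deficient replicate 1. After sham surgery, in the same fit with the series term, the median was -0.60 and 6 of 9 were lower. Without the term the sham values were 0.02 and 0 of 9, and without the later-numbered libraries -0.44 and 0 of 9.

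Cell cycle genes were higher in sign but rarely in test. All 33 mitosis genes had a positive difference (median 0.49), and 3 were higher at an unadjusted p under 0.05. Top2a, the topoisomerase of dividing cells, stood at 5.57, 19.6, 20.3, 8.27 and 6.30 CPM in deficient replicates 1 to 5 and at 13.7, 6.77, 5.37, 5.68 and 4.20 CPM in control replicates 1 to 5 (0.75, SE 0.45, edgeR adjusted p 0.629). Deficient replicates 2 and 3 and control replicate 1 were the high libraries. Mki67, a proliferation antigen, was at 10.3, 15, 18.4, 10.7 and 6.82 CPM against 20.5, 8.97, 8.25, 8.50 and 6.34 CPM (0.34, SE 0.31, edgeR adjusted p 0.815). Without control replicate 1 the mitosis median was 0.82 and 27 of 33 were higher at an unadjusted p under 0.05, and without deficient replicate 2 or 3 it was 0 of 33. Of 39 genes of DNA replication and G1/S, 7 were higher and 0 lower (median 0.22), Cdc6, a replication licensing factor, among them (1.07).

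Among genes of endothelial identity, Pecam1 (0.09, SE 0.13) and Cdh5 (0.15, SE 0.10) overlapped between groups. Against 5.4% of all genes, 4 of 15 pan-endothelial, 3 of 11 general capillary, 3 of 12 venous and 0 of 13 aerocyte capillary markers were higher at an unadjusted p under 0.05. Arterial markers had 4 of 13 higher (median 0.34). Gja5, which encodes connexin 40, stood at 434, 307, 556, 240 and 313 CPM in deficient replicates 1 to 5 and at 369, 336, 194, 201 and 205 CPM in control replicates 1 to 5 (0.63, SE 0.19, edgeR adjusted p 0.271). The chemokine gene Cxcl12 did not overlap between groups, at 33.8 to 64.8 against 21.4 to 33.2 CPM (0.81).

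BMP9/ALK1 signalling is the endothelial pathway whose ligand BMP9 comes from the liver. Of its 26 genes, 6 were higher and 0 lower, with a median of 0.05. The receptor Acvrl1 (ALK1) stood at 795, 611, 592, 562 and 590 CPM against 619, 762, 482, 484 and 473 CPM (0.26, SE 0.12, edgeR adjusted p 0.498). Its co-receptor Eng was at 1048, 782, 762, 801 and 756 CPM against 882, 807, 631, 676 and 587 CPM (0.33, SE 0.13, edgeR adjusted p 0.354), deficient replicate 1 standing above the rest. The target Smad6 had a difference of 0.39 (SE 0.19) and the target Id1 of 0.25, both with overlapping groups. Tip-cell genes had 4 of 19 higher, including the basement membrane genes Nid1 (0.55), Lamb1 (0.40), Col4a2 (0.36) and Col4a1 (0.31). Vegfa, the main ligand of endothelial growth, averaged 405 ± 40.9 CPM in deficient libraries against 398 ± 68.4 CPM in controls (SD, 5 libraries a group).

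Retinoid genes did not shift together. Of 14 tested retinoic acid-induced genes, 1 was higher and 1 lower at an unadjusted p under 0.05 (median 0.08), and the same counts were 1 and 3 of 31 genes of retinoid uptake, storage and metabolism (median 0.01) and 1 and 1 of 17 receptors and co-regulators (median 0.03). These shares lie near the background of all genes. Cyp26a1, whose element is printed above, stood at 6.04, 2.11, 4.89, 2.97 and 3.13 CPM in deficient replicates 1 to 5 and at 5.84, 1.87, 2.25, 2.46 and 1.44 CPM in control replicates 1 to 5 (0.62, SE 0.35, edgeR adjusted p 0.601). Replicate 1 was the high library of each group.

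Cyp26b1 stood at 16.2, 9.50, 21.8, 13.0 and 18.5 CPM against 45.6, 17.8, 11.3, 10.6 and 10.1 CPM, with control replicate 1 far above the others (-0.24, SE 0.37, edgeR adjusted p 0.909). Its sign turned without that library (0.36). Rarb was at 33.5, 42.7, 32.3, 30.4 and 32.0 CPM against 40.6, 40.1, 23.1, 34.7 and 27.8 CPM (0.11, SE 0.14, edgeR adjusted p 0.882), and the retinal reductase gene Dhrs3 at 69.3 to 87.8 against 69.5 to 92.7 CPM (0.04, SE 0.09, edgeR adjusted p 0.93). The transglutaminase gene Tgm2, the one retinoic acid-induced gene that was higher at an unadjusted p under 0.05, was at 755 to 1253 against 795 to 1024 CPM (0.28, SE 0.12, edgeR adjusted p 0.39), and the one that was lower was Lrat. Rxra stood at 34.7, 32.3, 11.8, 29.7 and 34 CPM on the deficient diet and at 28.0 to 32.2 CPM on the control diet, deficient replicate 3 being alone in its low level (-0.11, SE 0.17).

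On the side of storage and synthesis, Lrat was at 3.76, 1.42, 1.66, 2.35 and 4.69 CPM against 3.07, 5.28, 2.19, 4.12 and 4.63 CPM (-0.77, SE 0.33, edgeR adjusted p 0.417). Dhrs9, a retinol dehydrogenase, had a difference of -0.96 (SE 0.31, edgeR adjusted p 0.299). Aldh1a2, a retinal dehydrogenase that is also a mesothelial marker, had one of -0.65 (SE 0.26, edgeR adjusted p 0.383), and Aldh1a1 one of 0.37 (SE 0.30, edgeR adjusted p 0.761). The cellular retinoic acid-binding protein gene Crabp2 (0.26, SE 0.42) overlapped between groups. Among receptors and co-regulators, Nr2f1 (0.62), which encodes COUP-TFI, was higher at an unadjusted p under 0.05.

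Blood cell genes varied between single libraries. The haemoglobin gene Hba-a2 stood at 64.0, 189, 102, 9.09 and 3.91 CPM in deficient replicates 1 to 5 and at 13.3, 68.8, 6.16, 7.43 and 7.13 CPM in control replicates 1 to 5 (2.01, SE 0.71, edgeR adjusted p 0.334). Deficient replicates 1 to 3 and control replicate 2 were high, and Hba-a3 (1.84, SE 0.82) had the same high libraries. Ahsp, which encodes a haemoglobin chaperone, differed the other way (-1.24, SE 0.31, edgeR adjusted p 0.158). The erythroid median of 1.66 (3 of 7 higher, 1 lower) was -0.71 within RT1-CE16-high libraries and 0.97 without deficient replicate 2. Platelet and megakaryocyte markers were negative in 11 of 11, with 4 lower (median -0.63), and their score was highest in control replicates 4 (3.13) and 5 (2.65) against 1.98 to 2.52 on the deficient diet. Neutrophil and lymphocyte markers had 0 members at an unadjusted p under 0.05 and mast cell markers 1 of 11.

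Housekeeping classes stayed close to the median of all genes. Cytosolic ribosomal proteins had 0 of 100 at an unadjusted p under 0.05 (median -0.02), spliceosome genes 0 of 87 (0.02), mitochondrial ribosomal proteins 3 of 72 (-0.01) and nuclear-encoded respiratory chain genes 7 of 98 (0.02). Hypoxia and glycolysis genes had 3 of 29 (0.07), the unfolded protein response 1 of 26 (-0.01) and cholesterol and fatty acid synthesis 1 of 31 (-0.10). Lower members outnumbered higher ones among genes of the NRF2 oxidative stress response (4 of 29 lower, 0 higher), among them Gsta3 at -0.86.

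**Figure D4:**
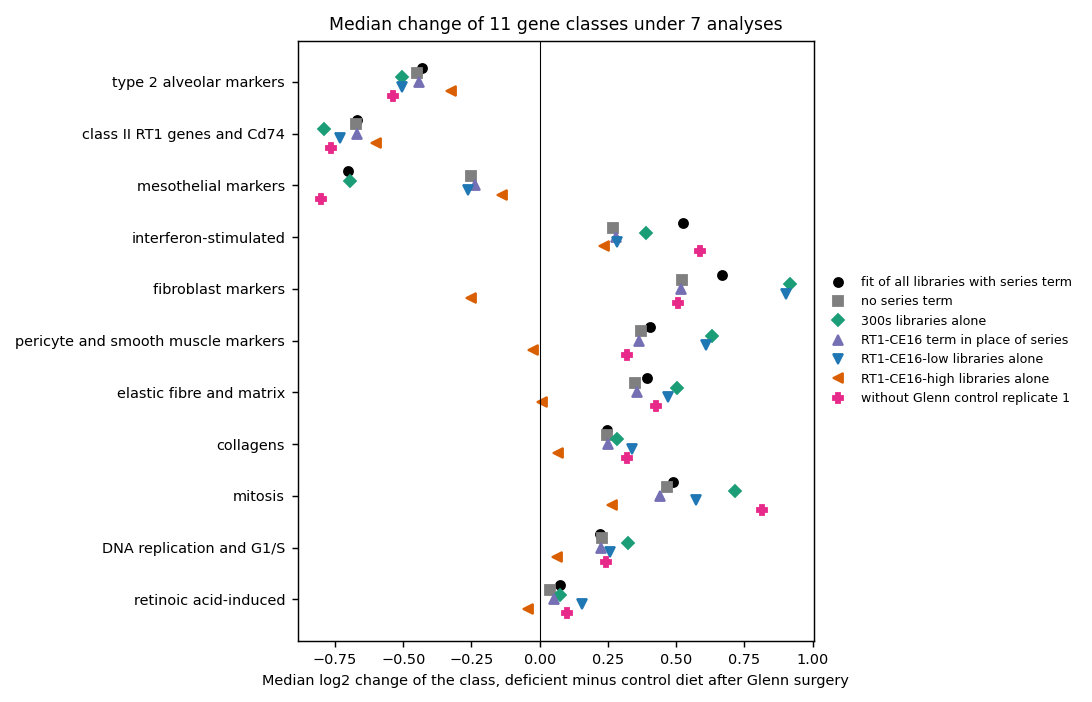
Median log2 difference (deficient minus control diet after Glenn surgery) of 11 gene classes under 7 analyses, each analysis with its own marker, and 0 drawn as a line. The class II medians run from -0.79 to -0.60 and the type 2 alveolar medians from -0.54 to -0.32, while the fibroblast median lies at 0.67 over all libraries and at -0.25 within RT1-CE16-high libraries.

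Genes raised or lowered after Glenn against sham surgery were listed from the excess-diet libraries. Those libraries are in neither group compared but enter the fit of the diet comparison and its series term. Libraries 601 and 602 of the deficient group are later-numbered, and no control is. On the excess diet, 3 Glenn libraries were later-numbered and RT1-CE16-high, and the other Glenn and all 5 sham libraries were neither. Whether the listed genes follow operation, library series or RT1-CE16 level was not tested on the excess diet. Of 824 genes raised there at least 2-fold, 89 were higher and 11 lower on the deficient diet at an unadjusted p under 0.05, with a median of 0.19. Of 336 genes lowered there, 42 were higher and 30 lower, with a median of 0.07. The score of the raised list was 3.51, 3.56, 3.74, 3.45 and 3.56 in the deficient libraries against 3.49, 3.25, 3.34, 3.37 and 3.45 in the controls, so that, of the deficient libraries, only replicate 4 was not above every control.

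After sham surgery the deficient diet changed 0 genes at the adjusted threshold by edgeR, 26 by DESeq2 and 0 by limma voom, with 844 at an unadjusted p under 0.05 (5.22%). Gpr157 there had a log2 difference of 0.32 (edgeR unadjusted p 0.18), Krt8 of -0.50, RT1-Da of -0.02 and Col1a1 of 0.22. The difference of the diet effect between operations was tested as an interaction. It gave 0 genes by edgeR, 0 by DESeq2 and 0 by limma voom, with 687 at an unadjusted p under 0.05 by edgeR (4.25%). Gpr157 had an interaction of 1.31 (edgeR adjusted p 0.76), RT1-Da of -0.63, Cd74 of -0.58 and Col1a1 of 0.64, so none of these genes was shown to differ between operations. By class, the interaction was at that unadjusted p for 11 of 38 elastic fibre and matrix, 5 of 11 class II and 4 of 17 fibroblast genes. The counts were 3 of 11 for type 2 alveolar, 5 of 27 for RT1, 1 of 31 for collagen, 0 of 44 for interferon-stimulated, 0 of 7 for erythroid and 0 of 9 for mesothelial genes. No class was tested as a set.

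The excess diet after Glenn surgery shares the 5 control libraries, and its values are set beside those above without a test of likeness. There, 237 genes passed and 2254 (13.9%) stood at an unadjusted p under 0.05. Gpr157 had a log2 difference of 1.32 on the excess and 1.63 on the deficient diet, Rftn1 of 0.64 and 0.44, Krt8 of -0.76 and -0.72, Rassf4 of -1.11 and -0.92, and Wnt5b of 0.91 and 0.78. For the degrading enzymes the values were 1.18 and -0.24 for Cyp26b1, and 1.12 and 0.62 for Cyp26a1. Mesothelial markers had medians of -1.01 and -0.70, interferon-stimulated genes of 0.51 and 0.53, type 2 alveolar markers of -0.34 and -0.43, and fibroblast markers of 0.17 and 0.67.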

How the data were processed

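Per the labels' protocols, RNA was isolated by PureLink columns, and SMART-Seq chemistry for low input gave the libraries. The authors deposited 1 table of estimated counts per gene (30562 rows, 13.6% of values not whole, 946 rows sharing a gene name). FastQC, Trim Galore, Picard, STAR and Salmon and the build mRatBN7.2 (rn7) are named in the submitters' processing notes, and their versions, the annotation and the strandedness are not given in the sources used here. All 30 sample columns were used and 0 columns left out.

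Estimated counts were rounded, genes kept by filterByExpr (minimum count 10, minimum total 15) and counts scaled by TMM (factors 0.94 to 1.06). One fit of edgeR 4.0.16 in R 4.3.3 (estimateDisp, robust glmQLFit, glmQLFTest) held all 30 libraries, with 6 group means and the library number series (300s, or 598 to 606) as an additive term. P-values were adjusted by Benjamini-Hochberg over 16171 genes. Each SE is the absolute log2 change over the root of its F statistic. The 20 within-group pairs of libraries correlated at 0.982 to 0.991 (Spearman), with a chi-square per degree of freedom of 17.4 to 94.3, above sampling noise. Estimated counts without molecular identifiers are not independent molecules.

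The members, gene classes and tests were chosen with earlier results of these data known. Genes named are, among those averaging 1 CPM or more that carry a proper symbol, the 10 higher and 10 lower with the smallest p, the 3 with the smallest p in each of the 8 classes with the largest share at an unadjusted p under 0.05 (classes of at least 5), and preset genes. Other members of a class named beside them were chosen after their values were seen. An RT1-CE16 level over 100 CPM defined RT1-CE16-high libraries, and over 10 CPM of Ddx3y male ones. Alternatives were DESeq2 1.42.0, limma 3.58.1 voom with quality weights, other size factors, no filter, fits with other terms or fewer libraries, and leaving out each library; a replicate block in a fit of only the 10 libraries was chosen after seeing the data. On simulated data for this comparison with 16171 genes, edgeR recovered 69 of 100 genes changed 2-fold and 82 of 100 changed 4-fold with 5 false calls, limma voom 69 and 78 with 7, and DESeq2 72 and 86 with 16. Apart from those changes, all simulated libraries shared the same mean for a gene, with no effect of library series, RT1-CE16 level or sex and no outlying library. The rates therefore do not measure recovery where such effects are present. Deviations from group means correlated by 0.02, 0.11, 0.08, 0.24 and 0.19 between same-numbered libraries. With other-numbered libraries the highest values were 0.08, 0.05, 0.08, 0.04 and 0.08. The labels name no pairing and replicates 1 and 3 correlated weakly, so the main fit used no pairing. Same-numbered libraries do match in RT1-CE16 level and in sex by Ddx3y. Promoters are RefSeq's of GRCr8, another build than that of the counts, matched by symbol. Figures were drawn with matplotlib 3.10.9. Values of some single genes are not reported here.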

Additional observations from a re-analysis of the deposited data

Results flagged for a closer look

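In 176 sets of 5 libraries examined, 20 held a library whose gap to its nearest neighbour took over 0.71 of the range of its group, and chance gives about 1 in 20 (8.8 sets). The number after each item is that share of the range.

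In Glenn control replicate 1, Cyp26b1 (0.783, at 45.6 CPM against 10.1 to 17.8), Cyp26a1 (0.768), Mki67 (0.814), Top2a (0.730), Col8a1 (0.837) and the mitosis score (0.769) were the highest of the group and the number of genes detected the lowest (0.773). Control replicate 2 had the highest total count (0.904, 77.6 M counts against 38.2 to 42 M), Hba-a2 level (0.887) and erythroid score (0.768). Control replicate 4 was highest for Ptprc (0.855, 8.69 CPM) and Fyb1 (0.829, 12.1 CPM).

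On the deficient diet, replicate 1 was highest for Eng (0.846) and Acvrl1 (0.790). Replicate 2 was highest for Igtp (0.794), Ptprc (0.758) and Rarb (0.749). Replicate 3 was highest for Ciita (0.736) and Col6a3 (0.730, 131 CPM) and lowest for Rxra (0.780, at 11.8 CPM against 29.7 to 34.7).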

How the results depend on the processing

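The number of genes differing was 1, Gpr157, in the fits with other size factors, without a filter, with terms for sex, marker scores or RT1-CE16, and without the series term. It was 1 to 60 when each library was left out in turn, 60 being the count without Glenn control replicate 1. Counts were 63 with DESeq2, 29 with limma voom, 2 with the newer edgeR dispersion method, 2 without the later-numbered series and 4 within RT1-CE16-low libraries. Within RT1-CE16-high libraries 1 gene was called, which was lower on the deficient diet and was not Gpr157. With only the 2 groups the count was 16 with the series term and 0 without it (1127 at an unadjusted p under 0.05 by edgeR). Of the 60, 36 were among DESeq2's 63 and 19 among voom's 29. The replicate block beside the series gave 1 gene, as did the fit without it, and the replicate block in a fit of only the 2 groups, chosen after seeing the data, gave 0 (1152 at an unadjusted p under 0.05 by edgeR), with 25 of 43 interferon genes higher at that p. Same-numbered libraries correlated best with each other in all replicates but 1. The interaction gave 0 genes in every setting run. Within RT1-CE16-high libraries the class medians were -0.138 for mesothelial, 0.236 for interferon, -0.707 for erythroid, -0.252 for fibroblast and -0.0261 for pericyte and smooth muscle genes, 0.00808 for elastic fibre genes and 0.0662 for collagens. The type 2 alveolar median was 0.00382 with marker scores as covariates, which hold that score. The erythroid median was 2.31 with voom, 0.754 with marker scores, 0.981 with the replicate block in the 2 groups, and 0.970 to 2.59 leaving out libraries. The RT1 median was -0.437 with the RT1-CE16 term, -0.312 with marker scores, -0.406 without the series term, -0.396 in the 2 groups, -0.449 there with the replicate block, -0.372 and -0.400 within RT1-CE16-high and RT1-CE16-low libraries, and -0.485 to 0.0173 leaving out libraries (0.0173 without control replicate 2). For the list of genes lowered after Glenn surgery on the excess diet, the median was -0.00543 within RT1-CE16-low libraries.

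Signs of single genes turned within RT1-CE16-high libraries for Mfap5 (-0.50), Hba-a2 (-0.152), Hba-a3 (-1.89), Plin2 (-0.0111), Cyp26b1 (0.593), Rarb (-0.00409), Dhrs3 (-0.0542), Crabp2 (-0.902), Tgm2 (-0.0327), Aldh1a1 (-0.725), Rxra (0.0946) and Vegfa (0.0405). With the RT1-CE16 term they turned for Dhrs3 (-0.0116), Crabp2 (-0.172), Ptprc (0.00212) and Vegfa (0.0253), without the series term for Dhrs3 (-0.0103), Crabp2 (-0.0339) and Vegfa (0.0256), in the 2 groups without it for Dhrs3 (-0.0237), Crabp2 (-0.0503) and Vegfa (0.0122), and there with the replicate block for Dhrs3 (-0.0223), Crabp2 (-0.160) and Vegfa (0.0238). Other turns were Cyp26b1 (0.126) and Ptprc (0.0879) with voom, Rarb (-0.00117), Pecam1 (-0.0587) and Sftpc (0.00382) with marker scores, Ptprc without the later-numbered series (0.00108), and Ptprc (0.731) and Vegfa (0.00801) within RT1-CE16-low libraries. Leaving out libraries gave -0.433 to 0.361 for Cyp26b1, -0.117 to 0.0528 for Vegfa (both positive without control replicate 1), -0.866 to 0.603 for Ptprc (positive without control replicate 4) and -0.231 to 0.123 for Rxra (positive without deficient replicate 3). The cause was not tested. Depth was lowest in deficient replicate 5 (22 M counts), and genes near 1 CPM carry the largest counting error.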
